A study of Mus musculus with 3 samples.

Results

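The thrombospondins are calcium-binding glycoproteins that cells secrete into the extracellular matrix. The genes described here are the 5 members Thbs1, Thbs2, Thbs3, Thbs4 and Comp, whose rows were found by symbol alone, each once among the 32288 features of the count tables. They were followed across cell classes of the mouse patellar tendon, the band that joins the kneecap to the shin bone, at 2 ages. Cells were freed with type I collagenase, sorted so that haematopoietic and endothelial cells were depleted, and profiled with a droplet method that tags each captured messenger RNA molecule with a unique molecular identifier (UMI). All animals were labelled wild type, no treatment was given, and sex and strain are not stated in the labels. There was 1 library of mice aged 2 weeks and there were 2 of mice aged 20 weeks, called replicate 1 and replicate 2. How many animals went into a library is not stated, so p-values measure only the spread between these libraries, which may be technical. In most sets of cells the age test took that spread almost wholly from all genes together, not from the gene itself.

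Thrombospondins share a carboxy-terminal region that binds calcium and cell-surface proteins, and they fall into 2 groups by how the chains assemble. Thbs1 and Thbs2 form trimers that carry type 1 repeats, which bind the scavenger receptor CD36, and thrombospondin 1 can release transforming growth factor beta from its latent complex. Thbs3, Thbs4 and Comp form pentamers without those repeats. Comp (cartilage oligomeric matrix protein) binds fibrillar and type IX collagens and speeds the assembly of collagen fibrils, and in tendon both Comp and thrombospondin 4 belong to the load-bearing matrix.

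On GRCm38, the assembly that mm10 names, Thbs1 (ENSMUSG00000040152) lies on the plus strand at chr2:118111876-118127133 and Thbs2 (ENSMUSG00000023885) on the minus strand at chr17:14665500-14694235. Thbs3 (ENSMUSG00000028047) lies on the plus strand at chr3:89215180-89226837, Thbs4 (ENSMUSG00000021702) on the minus strand at chr13:92751590-92794818, and Comp (ENSMUSG00000031849) on the plus strand at chr8:70373558-70382066. The exons of Thbs3 overlap those of the antisense gene Mtx1 over 318 bases, 6.59% of the exonic length of Thbs3. Those of Thbs1 overlap the antisense gene Gm29233 over 208 bases, or 3.42%. The strand setting of the counting is not given in the sources used here, so reads in these stretches cannot be told apart from the partner's.

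RefSeq's promoter table (GRCm38.p6) matched 3 of the 5 members, Thbs2, Thbs3 and Thbs4, and has no entry used here for Thbs1 or Comp. The 250 bases before the start of each are shown because the RNA of these 3 genes was spread over the cell classes in different ways. Thbs4 was highest in tendon-type cells, lower in several fibroblast classes and near 0 in mural cells. Thbs2 was in tendon-type cells and several fibroblast classes, and Thbs3 was at like levels in most fibroblast classes. Capitals mark the E-box CANNTG, the motif that basic helix-loop-helix factors such as the tendon factor scleraxis bind.
Thbs2 promoter, chr17:14694263-14694512, minus strand: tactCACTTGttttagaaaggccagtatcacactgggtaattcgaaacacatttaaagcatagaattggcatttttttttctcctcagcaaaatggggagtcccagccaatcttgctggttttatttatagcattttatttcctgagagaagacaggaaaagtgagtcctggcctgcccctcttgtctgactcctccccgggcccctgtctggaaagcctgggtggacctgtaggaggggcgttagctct
Thbs3 promoter, chr3:89214930-89215179, plus strand: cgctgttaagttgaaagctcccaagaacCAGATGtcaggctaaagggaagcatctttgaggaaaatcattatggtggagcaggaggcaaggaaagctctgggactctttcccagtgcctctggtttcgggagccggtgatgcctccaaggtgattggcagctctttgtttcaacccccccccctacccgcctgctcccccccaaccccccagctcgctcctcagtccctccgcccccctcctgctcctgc
Thbs4 promoter, chr13:92794819-92795068, minus strand: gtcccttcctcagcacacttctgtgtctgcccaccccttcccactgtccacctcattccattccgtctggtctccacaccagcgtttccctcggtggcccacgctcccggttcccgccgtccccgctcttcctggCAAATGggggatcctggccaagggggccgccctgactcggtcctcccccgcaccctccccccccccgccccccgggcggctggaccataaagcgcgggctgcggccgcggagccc
Each promoter held 1 E-box, and 66.2% of the 32851 promoters of the table held at least 1 in a window of this length. Both strands were searched for the E-box CANNTG, the GC box GGGCGG, the TATA box TATAAA and the CCAAT box CCAAT, and no match overlapped another in these 3 windows. The Thbs4 window held 3 GC boxes, a number reached by 8.47% of all promoters, with 70.8% G and C and 19 CpG pairs, against medians of 52.4% and 6 over the table. The Thbs2 window had 46.8% G and C, 3 CpG pairs, 1 TATA box and 2 CCAAT boxes, where 12.4% and 33.8% of promoters hold at least 1 of these motifs. The Thbs3 window had 58.8% G and C, 6 CpG pairs, 1 GC box and 1 CCAAT box, and 32.7% of promoters hold a GC box. These are matches of letters only.

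The 2-week library held 5654 barcodes with 35556626 UMIs, replicate 1 held 715 with 1886785 and replicate 2 held 1169 with 5849867. Filtering and doublet removal left 4767, 606 and 1007 cells in turn, whose medians were 6465, 2822 and 5098 UMIs. The 2-week library shared 2 barcodes with replicate 1 and 3 with replicate 2, and the 20-week libraries shared none. Replicate 2 stood apart in holding all 83 muscle fibre-like and all 67 B lineage-like cells. Endothelial and myeloid markers summed to between 33.9 and 90.2 and between 5.01 and 18.3 counts for each 1000000 UMIs (CPM) in the libraries. Clusters were built without the 5 genes and named from marker genes. The levels by class are descriptions, and no class was tested against the rest.

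Cells with tendon markers fell into 3 clusters, called tendon-type here because at least 2 tenocyte markers were among the 10 leading genes of each. This grouping was chosen after the data had been seen. The tenocyte-like cluster, led by Col22a1, Tnmd, Scx and Fmod, had 243 cells at 2 weeks, 6 in replicate 1 and 51 in replicate 2. The fibrocartilage-like cluster, led by Spp1, Ibsp, Clu, Cytl1 and Chad, had 15, 229 and 109. The unnamed cluster 3, led by Spp1, Angptl7 and Ibsp, had 549, 5 and 1, so most tendon-type cells of the 2 ages came from different clusters. All 8 tenocyte markers were detected in each of these clusters in each library with at least 20 of its cells. Other classes with at least 20 cells in every library were progenitor-like (857, 119 and 203 cells; Pi16, Cd55, Cd248), stromal fibroblast-like (227, 128 and 327; Cxcl14, Lpl) and mural-like cells (667, 42 and 38), and the unnamed fibroblast cluster 0 (1106, 50 and 80; Igfbp3, Sfrp2). Cluster 1 made up most progenitor-like cells (665, 117 and 203), and the rest came from cluster 11, led by Akr1c18 (192, 2 and 0). Cluster 2 made up most stromal fibroblast-like cells (155, 125 and 312), and the rest came from cluster 13 (72, 3 and 15). The mural-like cells were mostly of a smooth muscle cluster at 2 weeks (459 of 667) and all of a pericyte cluster in replicate 2.

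Thbs4, the pentameric thrombospondin of tendon and muscle attachments, was highest in tenocyte-like cells in both libraries that held at least 20 of them. Its level there was 2638 CPM at 2 weeks and 5775 CPM in replicate 2, with exact Poisson 95% intervals, which cover counting error only, that did not overlap. Cluster 3 followed at 2 weeks with 1155 CPM, then chondrocyte-like cells with 469 CPM and cluster 9, an unnamed fibroblast cluster led by Fmo2 and Hhip, with 361 CPM. In the classes that both 20-week libraries held, the order was the same in each: fibrocartilage-like cells (1198 and 2786 CPM), cluster 0 (718 and 520), stromal fibroblast-like (112 and 401), progenitor-like (31.2 and 35.8) and mural-like cells (21.6 and 0). No neighbours in that order had overlapping libraries, though the mural values rest on 2 and 0 UMIs. A count of 0 of 72201 UMIs allows up to 41.6 CPM, above the 35.8 CPM of progenitor-like cells in that library.

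After each cell was thinned to 1000 UMIs, 81.1% of tenocyte-like cells had a Thbs4 UMI at 2 weeks and 90.2% in replicate 2, against 93.0% and 92.2% unthinned. In mural-like cells, taken as a class low in the gene, the thinned share was 0.450% at 2 weeks and 0% in the 20-week libraries. The median depth was 5620 and 3152 UMIs in those tenocyte-like cells and 7022, 2046 and 1824 UMIs in mural-like cells of the 3 libraries in turn. Thbs4 UMIs were concentrated in tendon-type cells: clusters 3 and tenocyte-like held 43.2% and 27.9% of them at 2 weeks, and the fibrocartilage-like cluster 74.0% and 41.5% in replicates 1 and 2.

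**Figure D1:**
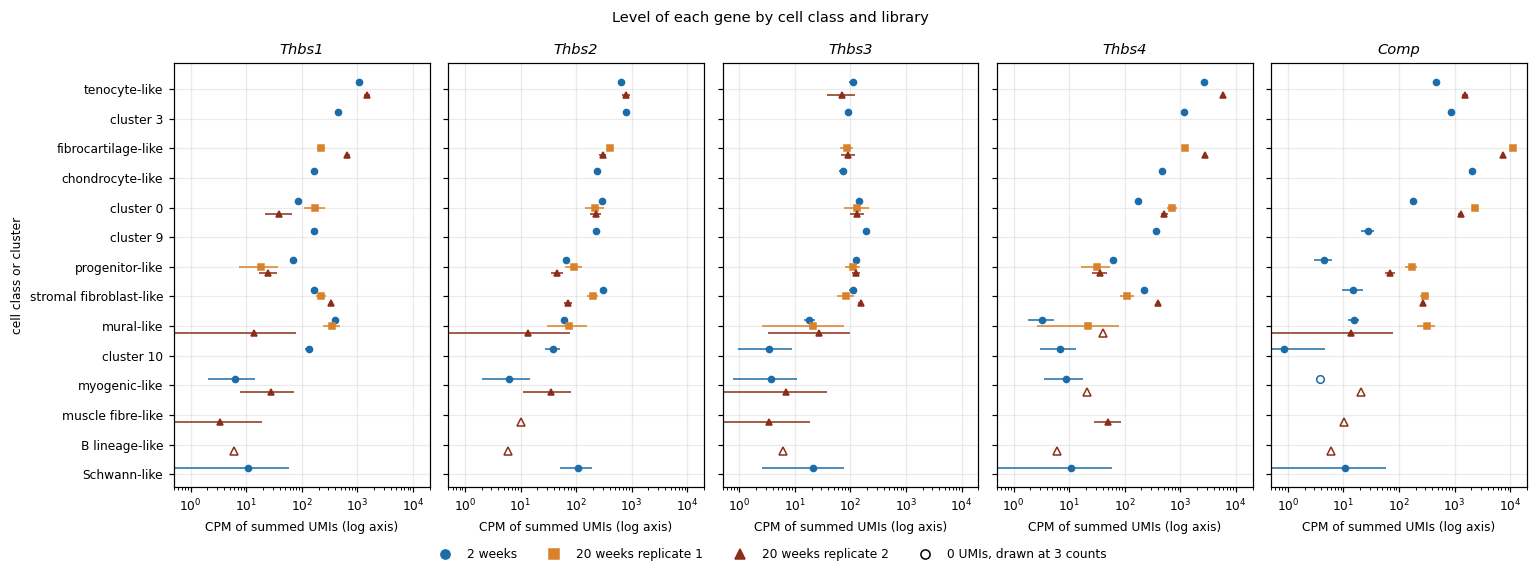
Level of each gene (CPM of UMIs summed over a class, log axis) by cell class and library, for classes with at least 20 cells in the library. Bars are exact Poisson 95% intervals, cut off at the left edge of the axis where they run past it, and open symbols mark 0 UMIs, drawn at the level of 3 counts. Thbs4 and Comp span the widest range between classes, while Thbs3 stays close to 100 CPM in the fibroblast and tendon classes.

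Comp, the cartilage and tendon pentamer, was highest in chondrocyte-like cells at 2 weeks and in fibrocartilage-like cells at 20 weeks, of the classes with at least 20 cells. There were 513 chondrocyte-like cells at 2 weeks but 2 in each 20-week library, and 15 fibrocartilage-like cells at 2 weeks. Neither class could thus be ranked at the other age. At 2 weeks its level was 2078 CPM in chondrocyte-like cells, 878 CPM in cluster 3, 469 CPM in tenocyte-like cells and 183 CPM in cluster 0. In fibrocartilage-like cells it reached 11345 CPM in replicate 1 and 7371 CPM in replicate 2, a median of 26 and 27 UMIs per cell. Cluster 0 came next of the classes that both held, with 2379 and 1283 CPM, then stromal fibroblast-like cells with 290 and 271 CPM, without overlap between neighbours. Progenitor-like cells (169 and 69.2 CPM) and mural-like cells (313 and 13.9 CPM) did overlap, and the mural range also spans that of stromal fibroblast-like cells. The fibrocartilage-like cluster held 92.0% and 74.0% of all Comp UMIs of the 20-week libraries.

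In mural-like cells, which stand for cells that lack Comp, the level differed between the libraries. It was 15.3 CPM at 2 weeks (72 UMIs), 313 CPM in replicate 1 (29 UMIs) and 13.9 CPM in replicate 2 (1 UMI). The share of mural-like cells with a Comp UMI was 38.1% in replicate 1 before thinning, against 7.20% at 2 weeks and 2.63% in replicate 2. The values of progenitor-like and stromal fibroblast-like cells in replicate 1 did not exceed the level in mural-like cells of that library, and the part of free RNA in them was not tested. In replicate 2 stromal fibroblast-like cells stood above it in level, at 271 CPM. They had a Comp UMI in 11.01% of thinned cells (20.5% unthinned, median depth 6403 UMIs) against 2.63% of mural-like cells (median 1824 UMIs). That mural-like share rests on 1 UMI among 38 cells, too few to tell the shares apart. In replicate 2, 97.8% of the Comp UMIs of progenitor-like cells came from 5 of 203 cells. No Comp UMI was found in the 125 and 33 myogenic-like cells of the 2-week library and replicate 2, which allows a share of cells with a UMI of up to 2.40% and 9.09%.

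**Figure D2:**
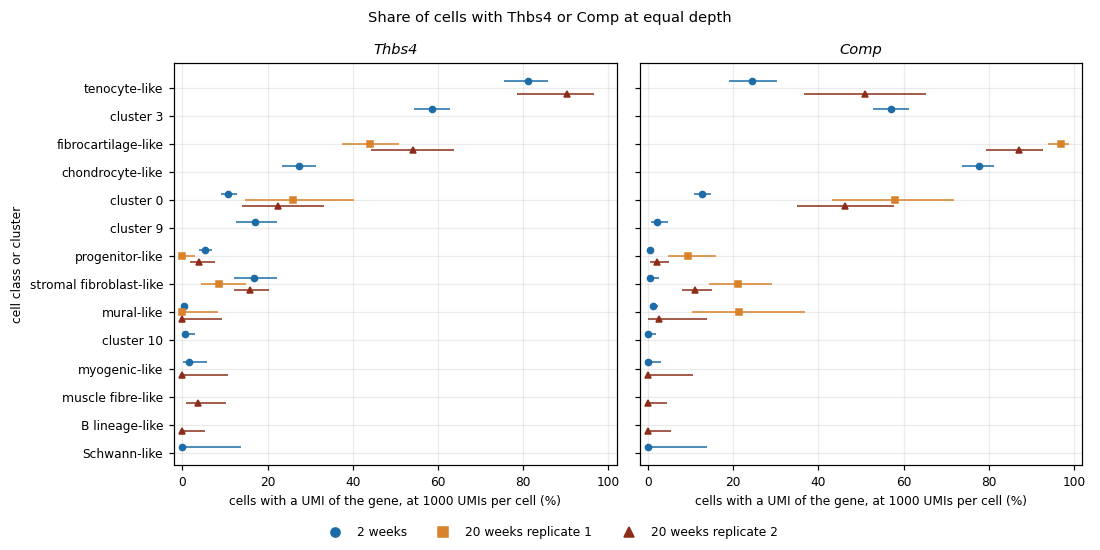
Share of cells with a UMI of Thbs4 or Comp by class and library, after each cell was thinned to 1000 UMIs, with exact 95% binomial intervals. Thbs4 is found in 81.1% and 90.2% of tenocyte-like cells and hardly in mural-like cells, and the mural-like cells of replicate 1 have the highest Comp share of the mural-like cells of the 3 libraries.

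Whether Thbs4 and Comp were found in the same cells was described within classes, with 1 value per library. In thinned tenocyte-like cells at 2 weeks, 26.9% of the 197 cells with Thbs4 also had Comp, against 13.0% of the 46 without it, with overlapping exact intervals. In fibrocartilage-like cells the same shares were 98.0% and 96.1% in replicate 1 and 91.5% and 82.0% in replicate 2. In cluster 3 they were 55.6% and 59.0%. The intervals overlapped in all of these. In cluster 0 the shares were 21.8% and 11.6% at 2 weeks, without overlap of the intervals, and 69.2% and 54.1% in replicate 1 and 72.2% and 38.7% in replicate 2, with overlap.

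Thbs1, a trimeric member best known from platelets and for activating transforming growth factor beta, was highest in tenocyte-like cells but was also abundant in mural cells. It reached 1090 CPM in tenocyte-like cells at 2 weeks and 1508 CPM in replicate 2, with a UMI in 50.2% and 54.9% of thinned cells. At 2 weeks it was at 449 CPM in cluster 3 and 398 CPM in mural-like cells, of which the smooth muscle cluster had 444 and the pericyte cluster 228 CPM. In replicate 1 mural-like cells were at 346 CPM from 32 UMIs, 65.6% of them in 5 cells, and in replicate 2 at 13.9 CPM from 1 UMI. In the 20-week libraries fibrocartilage-like (222 and 653 CPM) and stromal fibroblast-like cells (223 and 338 CPM) overlapped and lay above cluster 0 (172 and 39.1 CPM), which lay above progenitor-like cells (18.2 and 24.9 CPM). The range of mural-like cells spanned these last 2 and overlapped the first 2. Myogenic-like cells had 6.28 CPM at 2 weeks.

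Thbs2, the other trimeric member, which limits vessel growth and affects collagen fibril shape, followed the tendon-type clusters more evenly. It was at 790 CPM in cluster 3 and 654 CPM in tenocyte-like cells at 2 weeks, and at 784 CPM in tenocyte-like cells of replicate 2. At 2 weeks 299 CPM was measured in stromal fibroblast-like cells, 288 in cluster 0, 239 in chondrocyte-like cells and 65.7 in progenitor-like cells. In the 20-week libraries fibrocartilage-like cells (401 and 303 CPM) stood above cluster 0 (218 and 226), which stood above stromal fibroblast-like cells (198 and 70.6). Stromal fibroblast-like cells overlapped progenitor-like cells (90.9 and 45.9), as these did mural-like cells (75.7 and 13.9). Within the mural cells of 2 weeks, Thbs2 had 186 CPM in the pericyte cluster and 25.4 CPM in the smooth muscle cluster, the opposite order to Thbs1.

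Thbs3, the remaining pentamer, had no class in which it stood out. At 2 weeks its level lay between 72.8 CPM in chondrocyte-like cells and 190 CPM in cluster 9 in all fibroblast, tendon and cartilage classes. It was 18.3 CPM in mural-like cells and 3.42 CPM in cluster 10, an unnamed cluster led by Fabp4, Nrgn and Casq2. In the 20-week libraries it was 133 and 131 CPM in cluster 0, 112 and 125 in progenitor-like cells, 81.9 and 153 in stromal fibroblast-like cells and 85.4 and 90.6 in fibrocartilage-like cells. Cluster 0 and progenitor-like cells did not overlap with each other, while stromal fibroblast-like cells overlapped all 3 of the others. All of these were above the 21.6 and 27.7 CPM of mural-like cells, which rest on 2 UMIs in each library. Progenitor-like cells, a class low in the other 4 genes, held 25.2%, 26.7% and 27.0% of the Thbs3 UMIs of the 3 libraries.

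**Figure D3:**
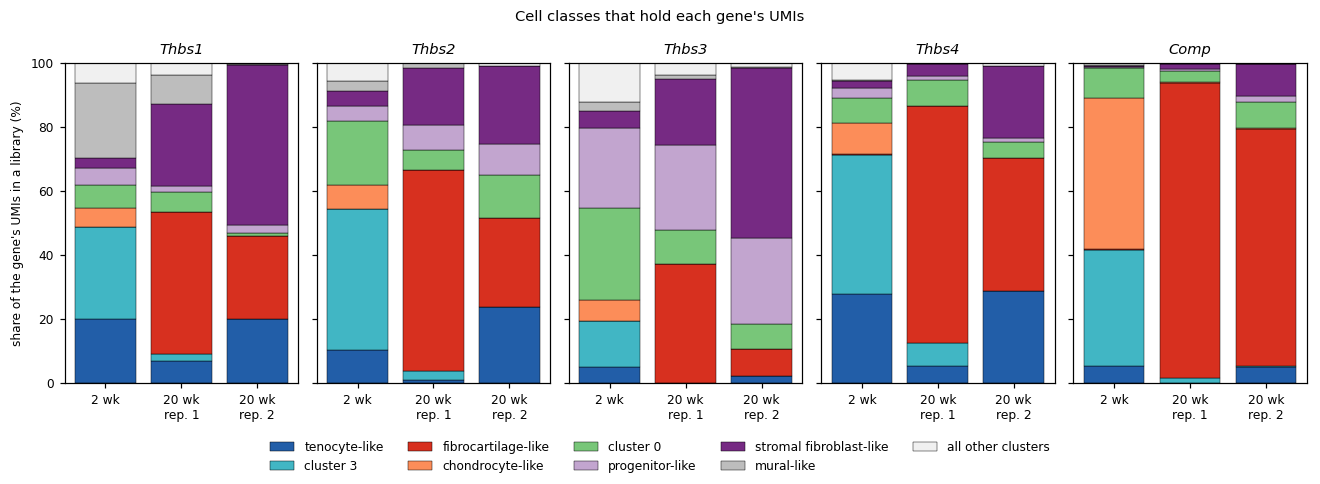
Share of each gene's UMIs (%) that came from each cell class, in 1 bar per library. The bars depend on how many cells of a class a library held as well as on their level: Comp UMIs came mostly from chondrocyte-like cells and cluster 3 at 2 weeks and from fibrocartilage-like cells at 20 weeks, and Thbs3 UMIs were spread over many classes.

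All 5 genes were at 0 UMIs in the 67 B lineage-like cells of replicate 2, where 0 of 499096 UMIs allows up to 6.01 CPM each. In the 83 muscle fibre-like cells of that library Thbs4 had 15 UMIs (51.2 CPM), Thbs1 and Thbs3 had 1 UMI each, and Thbs2 and Comp none. In the 25 Schwann-like cells of the 2-week library Thbs2 had 10 UMIs (107 CPM) and the other 4 genes 1 or 2 each.

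Across the 25 sums of a class in a library with at least 20 cells, the log2 levels of the members correlated with each other to different degrees. Pearson's r ran from 0.48 for Thbs1 with Thbs3 to 0.83 for Thbs2 with Thbs4, and was 0.81 for Thbs4 with Comp. These sums share libraries and depth, so the values are descriptions. Of 6077 genes, those most like Thbs4 were Col8a2 (r = 0.94), Itgbl1 (0.92) and Cilp (0.90), and those most like Comp were Chad (0.93), a cartilage leucine-rich repeat protein, Prg4 (0.91), which encodes lubricin, and Clu (0.87). Thbs1 was nearest to Lox (0.86), which encodes the collagen cross-linking enzyme lysyl oxidase, Rin2 (0.82) and Col12a1 (0.81). Thbs2 was nearest to Abi3bp (0.89), Rin2 (0.87) and Col16a1 (0.86), and Thbs3 to Fuca1, Tgfbi and Rnase4 (0.92, 0.92 and 0.91).

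The first question of the design was what changes between 2 and 20 weeks. Summed over all cells, none of the 5 genes passed edgeR's quasi-likelihood test with Benjamini-Hochberg adjustment at 0.05, where 0.12% of 13299 genes did. None had an unadjusted p under 0.05 either, and DESeq2 called 1, Comp. Comp was at 384 CPM at 2 weeks, 4855 CPM in replicate 1 and 996 CPM in replicate 2. Both 20-week libraries were above the 2-week library, but they differed from each other by more than replicate 2 differed from it. Log2 changes and ratios of single libraries were scaled by TMM (trimmed mean of M values), which the CPM were not, so a ratio can differ from that of the printed CPM. Of 73 such ratios, 6 had another sign on plain CPM, the largest of them at 0.27 in size. The log2 change of Comp was 3.09 (SE 1.32, edgeR adjusted p = 0.613), and over 7 alternatives the adjusted p ran from 0.0395, with DESeq2, to 0.776. The change of a sum over all cells holds both the makeup of cells and the level per cell, which cannot be told apart in it.

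The other 4 genes moved less in all cells. Thbs4 was at 422, 638 and 671 CPM in the 2-week library and replicates 1 and 2 (log2 change 0.66, SE 0.63, edgeR adjusted p = 0.944). Thbs1 was at 245, 197 and 252 CPM, and Thbs3 at 98.7, 90.2 and 108 CPM, with the 2-week value inside the 20-week range for both. Thbs2 was at 283, 252 and 109 CPM, below the 2-week value in both. After TMM scaling the log2 ratios of the 20-week libraries were -0.01 and -1.60, and from the plain CPM they were -0.17 and -1.37 (edgeR adjusted p = 0.979).

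In the tendon-type clusters 1 of 5 genes, Comp, passed the test, where 8.44% of 7947 genes did. Comp was at 787 CPM in the 807 cells of 2 weeks, 11216 CPM in the 240 of replicate 1 and 5910 CPM in the 161 of replicate 2. Both 20-week libraries were far above the 2-week library. The log2 change was 3.31 (SE 1.01, edgeR adjusted p = 0.0162), and 3.74 and 2.49 in replicates 1 and 2 singly. The comparison set mostly cluster 3 against the fibrocartilage-like cluster, and the 8 fibrocartilage markers summed to 4320 CPM at 2 weeks, with Npy at 0, and to 38073 and 24160 CPM at 20 weeks. Their part in the result was not tested. Myeloid markers summed to 4.37, 2.76 and 73.3 CPM. The call held in 7 of 8 alternatives and was lost without the filter on low counts, at an edgeR adjusted p of 0.155 in a range of 1.01e-05 to 0.155. Of the 7, 1 had the members in the clustering and Comp among the tenocyte markers. Comp then helped to choose the cells it was tested in, so that alternative is no independent check.

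Closer comparisons of cells with the same class name have 1 library per age and so no test. In tenocyte-like cells Comp was at 469 CPM at 2 weeks and 1535 CPM in replicate 2, a log2 ratio of 1.71 from the plain CPM and 1.40 after TMM scaling. Thbs4 was at 2638 and 5775 CPM, a log2 ratio of 1.13 from the plain CPM and 0.82 after TMM scaling. The Poisson intervals did not overlap for either gene. Thbs1 had log2 ratios of 0.47 (plain) and 0.16 (TMM), and Thbs3 of -0.67 and -0.94 from 13 UMIs in replicate 2. The direction of Thbs2 turned with the scaling, at 0.26 (plain) and -0.05 (TMM). At the finer clustering resolution of 1.0, a fibrocartilage-like cluster of 177 cells at 2 weeks, led by Spp1 and Ibsp, had 1458 CPM of Comp, and another of 43 cells in replicate 2, led by Cytl1 and Clu, had 9392 CPM. Thbs4 was at 483 and 624 CPM in the same cells. Each of these clusters had cells in that library only, so they share a class name but are different clusters. The unnamed cluster led by Ibsp, Spp1 and Chad at that resolution, with 230 and 66 cells in replicates 1 and 2, had 11308 and 5104 CPM of Comp and 1194 and 5212 CPM of Thbs4.

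The remaining genes did not pass in the tendon-type clusters. Thbs4 was at 1481, 1360 and 3535 CPM in the 2-week library and replicates 1 and 2, on both sides of the 2-week value. Thbs1 was at 587, 260 and 870 CPM, also on both sides. Thbs2 was at 757, 413 and 422 CPM, lower in both 20-week libraries, with a log2 change of -1.04 (SE 0.72, edgeR adjusted p = 0.515). Thbs3 was at 94.1, 82.9 and 85.5 CPM.

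**Figure D4:**
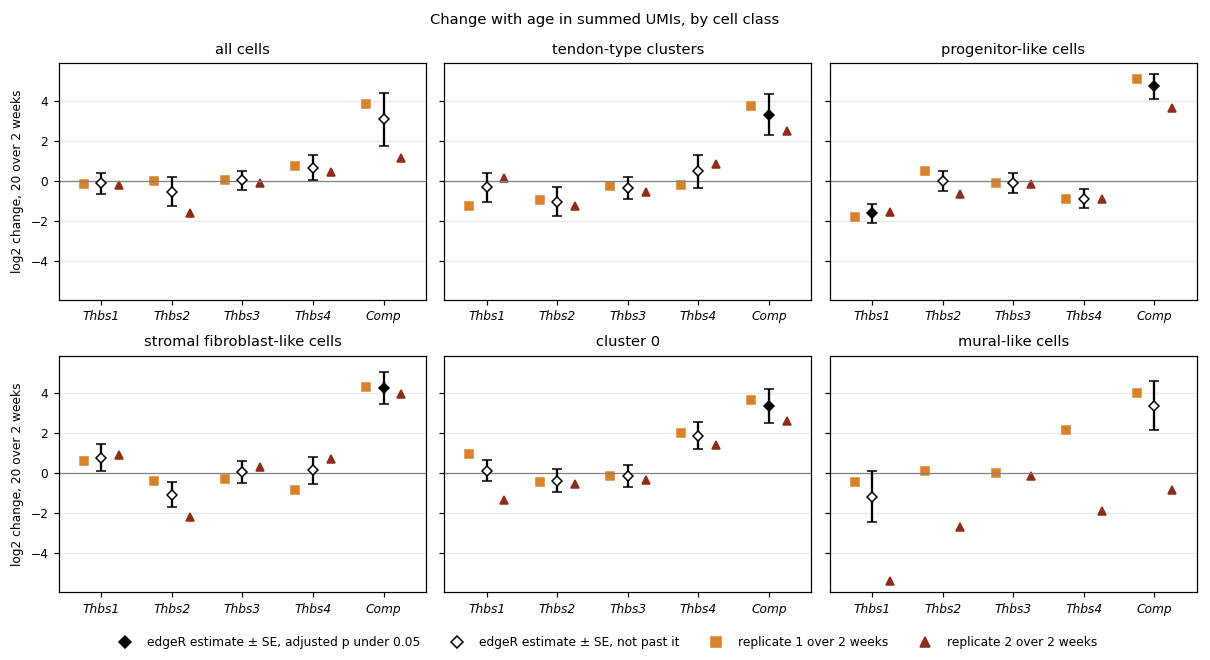
Log2 change of each gene from 2 to 20 weeks in the summed UMIs of 6 sets of cells. Diamonds are edgeR estimates with their SE, filled where the adjusted p was under 0.05, and squares and triangles are the TMM-scaled ratios of replicates 1 and 2 over the 2-week library. Comp is above 0 in both replicates in every set but mural-like cells, and Thbs1 is below 0 in both in progenitor-like cells. The sets share the same 3 libraries, so they do not support each other.

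In progenitor-like cells, fibroblasts marked by Pi16, Cd55 and Cd248, 2 of 5 genes passed, Thbs1 lower and Comp higher, where 3.35% of 9708 genes did. Thbs1 was at 67.9 CPM at 2 weeks (432 UMIs), 18.2 CPM in replicate 1 (7 UMIs) and 24.9 CPM in replicate 2 (32 UMIs, 93.8% of them in 5 cells). Both 20-week libraries were below the 2-week library. The log2 change of Thbs1 was -1.63 (SE 0.48, edgeR adjusted p = 0.0268), and -1.81 and -1.57 in the single replicates. It stayed past the threshold in 3 of 8 alternatives, with adjusted p between 0.0149 and 1. In cluster 1 alone Thbs1 was at 74.6, 18.6 and 24.9 CPM and passed (log2 change -1.74, edgeR adjusted p = 0.0149), while cluster 11 had 48.5 CPM at 2 weeks.

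Comp in progenitor-like cells was at 4.403, 169 and 69.2 CPM, from 28, 65 and 89 UMIs. The log2 change was 4.72 (SE 0.63, edgeR adjusted p = 4.74e-11), 5.10 in replicate 1 and 3.62 in replicate 2. The test took its spread from all genes together here, so the gap between 169 and 69.2 CPM hardly counted in that p. Both libraries were above the 2-week value, but the first did not exceed the Comp level of its own mural-like cells and the second rested on 5 cells. Markers of fibrocartilage summed to 17.5, 564 and 41.2 CPM in these cells, highest where Comp was highest, and their part was not tested. Comp passed in 7 of 8 alternatives, among them cluster 1 alone (5.285, 170.2 and 69.2 CPM, edgeR adjusted p = 7.47e-10), and with library totals in place of TMM scaling the edgeR adjusted p was 0.0938, in a range from 5.97e-11. Thbs4 was at 61.6, 31.2 and 35.8 CPM, lower in both 20-week libraries, without passing (log2 change -0.89, SE 0.47, edgeR adjusted p = 0.563). It passed in 1 of 8 alternatives, the one with the members in the clustering, with adjusted p from 0.0011 to 1. That alternative, also among the 7 of 8 for Comp, did not choose the cells independently of the members. Its progenitor-like class held 82 and 63 cells of replicates 1 and 2, against 119 and 203. In cluster 1 alone Thbs4 was at 81.6, 31.9 and 35.8 CPM (edgeR adjusted p = 0.162), and in cluster 11 at 3.685 CPM at 2 weeks. Thbs2 (65.7, 90.9 and 45.9 CPM) and Thbs3 (127, 112 and 125 CPM) did not pass.

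In stromal fibroblast-like cells, marked by Cxcl14 and Lpl, 1 of 5 genes, Comp, passed, where 2.9% of 10012 genes did. Comp was at 14.8 CPM at 2 weeks, 290 CPM in replicate 1 and 271 CPM in replicate 2, both above the 2-week library. The log2 change was 4.28 (SE 0.79, edgeR adjusted p = 1.66e-04), past the threshold in 9 of 9 alternatives (adjusted p 6.12e-06 to 0.0126). Of the 9, 1 had the members in the clustering and is no independent check. The value of replicate 1 was at the level of its mural-like cells. That of replicate 2 was above its own mural-like cells, which held 1 Comp UMI, and without replicate 1 the log2 ratio was 3.96. The fibrocartilage markers summed to 145, 747 and 844 CPM in these cells, and their part was not tested.

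Thbs1 in stromal fibroblast-like cells was at 164, 223 and 338 CPM, higher in both 20-week libraries, and did not pass (log2 change 0.78, SE 0.67, edgeR adjusted p = 0.739). Thbs2 was at 299, 198 and 70.6 CPM, lower in both, and did not pass either (log2 change -1.06, SE 0.63, edgeR adjusted p = 0.561). Thbs4 was at 223, 112 and 401 CPM and Thbs3 at 113, 81.9 and 153 CPM, each on both sides of the 2-week value. The Thbs4 level of 2 weeks joined unlike clusters, with 691 CPM in the 72 cells of cluster 13 and 60.8 CPM in the 155 of cluster 2. In cluster 2 alone Thbs4 was at 60.8, 106 and 399 CPM, higher in both 20-week libraries, and did not pass (log2 change 1.94, SE 0.71, edgeR adjusted p = 0.131). Of its 67 and 42 UMIs there at 2 weeks and in replicate 1, 83.6% and 69.0% came from 5 cells. Comp was the 1 member that passed in cluster 2 alone, at 16.3, 260 and 279 CPM (edgeR adjusted p = 2.88e-04).

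In cluster 0, fibroblasts led by Igfbp3, Sfrp2 and Ptn, 1 of 5 genes, Comp, passed, where 2.74% of 5874 genes did. Comp was at 183, 2379 and 1283 CPM, both 20-week libraries being above the 2-week library and also above their mural-like cells. The log2 change was 3.38 (SE 0.86, edgeR adjusted p = 0.00554), past the threshold in 3 of 3 alternatives (adjusted p 3.03e-05 to 0.00705). After thinning, 12.7% of cells had a Comp UMI at 2 weeks, 58.0% in replicate 1 and 46.2% in replicate 2. Thbs4 was at 170, 718 and 520 CPM, likewise higher in both, and did not pass after adjustment (log2 change 1.89, SE 0.69, edgeR adjusted p = 0.153, unadjusted p = 0.00629). In replicate 1, 70.7% of its Thbs4 UMIs came from 5 of 50 cells. The fibrocartilage markers summed to 379, 1786 and 1261 CPM with Ibsp at 0 in each library, and the tenocyte markers to 2847, 1833 and 1722 CPM.

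In mural-like cells 2 of the 5 genes had enough counts to be tested and none passed edgeR's test, where 0.165% of 2422 genes did. Comp had an unadjusted p of 0.00526, with log2 ratios of 4.04 in replicate 1 and -0.81 in replicate 2, and DESeq2 called none. Thbs1 was at 398, 346 and 13.9 CPM, lower in both 20-week libraries by very different amounts, and its edgeR adjusted p was 1. Endothelial markers summed to 4.68 and 0 CPM in these cells at 2 weeks and in replicate 1 and to 831 CPM, with all 7 detected, in replicate 2, and their part was not tested. In the pericyte cluster alone, which both ages held, Thbs1 was at 228, 129 and 13.9 CPM from 226, 6 and 1 UMIs. None of the 3 genes tested there passed edgeR's test, where 0.32% of 1873 genes did, with 1 unadjusted p under 0.05 (Comp) and no call by DESeq2.

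Whether the age change of a gene differed between classes was tested as the interaction of class and age with the library as a block, over 10 pairs of 5 classes, or 50 tests of a member. Of these, 3 passed edgeR's adjusted threshold, in 2 pairs. For tendon-type against progenitor-like cells, the pair that stands in for the planned tenocyte-like one, none of the 5 passed, where 4.01% of 9903 genes did, although 4 had an unadjusted p under 0.05. DESeq2 called none. There the age change in progenitor-like cells minus that in tendon-type clusters was -1.43 for Thbs1 (SE 0.50, edgeR adjusted p = 0.0864, alternatives 0.0262 to 1) and -1.40 for Thbs4 (SE 0.52, edgeR adjusted p = 0.134, alternatives 0.0209 to 1). In the other 7 pairs no member passed edgeR's or DESeq2's threshold, and 7 of 35 tests had an unadjusted p under 0.05. The share of all genes that passed there was 2.73% (tendon-type and stromal fibroblast-like), 0.745% (tendon-type and mural-like), 1.99% (tendon-type and cluster 0), 0.437% (progenitor-like and mural-like), 0.441% (stromal fibroblast-like and mural-like), 0.859% (stromal fibroblast-like and cluster 0) and 0.259% (mural-like and cluster 0).

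Thbs4 passed between cluster 0 and progenitor-like cells, where 0.88% of 9429 genes did. Its age change was higher in cluster 0 by 2.61 on the log2 scale (SE 0.37, edgeR adjusted p = 1.29e-09), with log2 ratios of 2.04 and 1.40 in cluster 0 and -0.92 and -0.92 in progenitor-like cells for replicates 1 and 2. The sign was thus opposite in both replicates. Thbs4 had 12 and 46 UMIs in progenitor-like cells of replicates 1 and 2, and 92 and 186 in cluster 0. Most of the 92 came from a few cells. The Thbs4 difference also passed with DESeq2 (adjusted p = 0.00551) and with library totals, and with cluster 1 alone in place of progenitor-like cells, and not without the library block, with adjusted p from 1.57e-11 to 0.675. Comp passed in the same pair with a smaller age change in cluster 0, a difference of -1.34 (SE 0.35, edgeR adjusted p = 0.0214), which held in 1 of 4 alternatives (adjusted p from 0.0261 to 1) and rests in part on the Comp value of progenitor-like cells in replicate 1, which did not exceed that of mural-like cells.

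Thbs1 passed between stromal fibroblast-like and progenitor-like cells, where 1.34% of 10519 genes did. Its age change was higher in stromal fibroblast-like cells by 2.45 (SE 0.47, edgeR adjusted p = 5.43e-05), with log2 ratios of 0.63 and 0.94 against -1.81 and -1.57 in replicates 1 and 2. It was past the threshold in 1 of 5 alternatives, the one that set cluster 2 alone against cluster 1 alone, with adjusted p between 3.12e-07 and 1 and differences between 2.36 and 2.90. Between those 2 clusters Thbs4 (3.30, edgeR adjusted p = 1.98e-09) and Thbs2 (-1.59, edgeR adjusted p = 0.0218) passed as well, which they did not between the classes (1.12 and -1.30, edgeR adjusted p of 0.403 and 0.122).

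Genes that work with thrombospondins were followed as lists. The 16 matrix partners listed were collagens, matrilins, Fn1, Acan, Dcn and Grn. Of these, 14 were measured in tendon-type clusters, of which 7 fell and none rose, where 8.44% of all genes passed in either direction. Their median log2 change was -2.90 against 0.03 for all genes. Col1a1, a chain of type I collagen and a known Comp ligand, fell from 79945 CPM at 2 weeks to 1541 and 2379 CPM (log2 change -5.57, SE 0.90, edgeR adjusted p = 5.56e-08). Comp rose in the same set of clusters. Most tendon-type cells of the later age came from another cluster than those of 2 weeks. The part of this difference in the changes of Comp and its partners was not tested. Col2a1 (-7.21), Matn4 (-4.76) and Col14a1 (-2.91) fell as well, with edgeR adjusted p of 1.12e-15, 8.35e-12 and 6.05e-06. In progenitor-like cells 3 of 8 measured partners fell (Col1a1, Matn2 and Col1a2), where 3.35% of all genes passed, and in stromal fibroblast-like cells 2 of 10 (Col2a1 and Matn2), where 2.9% did. In cluster 0 it was 4 of 8 (Col1a1, Col14a1, Col1a2 and Col12a1), against 2.74% of all genes, and in all cells 3 of 15 (Col9a3, Col9a2 and Col9a1), against 0.12%. None rose in these sets. Col9a3, Col9a1 and Col9a2 were among the leading genes of the chondrocyte-like cluster, which had 513 cells at 2 weeks and 2 in each 20-week library. The part of that difference in the fall over all cells was not tested. DESeq2 called 8 partners in tendon-type clusters and 3, 2, 3 and 8 in progenitor-like cells, stromal fibroblast-like cells, cluster 0 and all cells.

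Of 15 receptors, 9 were measured in tendon-type clusters, where 8.44% of all genes passed and 1 receptor rose, Itga5, a chain of the fibronectin receptor, at 12.2, 71.9 and 48.8 CPM (log2 change 2.14, SE 0.56, edgeR adjusted p = 0.00269). The median of the 9 was 0.96. In stromal fibroblast-like cells 2 of 13 fell, Itga6, a chain of laminin receptors (log2 change -3.04, edgeR adjusted p = 0.00201), and Cd36, the receptor for the type 1 repeats, at 15.5, 0 and 0.484 CPM. Cd47 and Lrp1, further thrombospondin receptors, passed in none of the sets tested. No receptor passed edgeR's test in progenitor-like, mural-like or all cells or in cluster 0, where 10, 10, 15 and 9 were measured and 0, 2, 2 and 1 had an unadjusted p under 0.05. DESeq2 called no receptor in any set.

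Of 11 proteases that act on matrix, including those that cut Comp, Adamts5 rose in tendon-type clusters (48.0, 176 and 294 CPM, log2 change 2.07, edgeR adjusted p = 0.03) and Mmp14 fell (105, 12.4 and 42.1 CPM, log2 change -2.19, edgeR adjusted p = 7.96e-04), of 6 measured. In progenitor-like cells Adamts12, which can cleave Comp, fell from 69.0 to 13.0 and 21.0 CPM (edgeR adjusted p = 0.00373), 1 of 6 measured. Adamts4 and Mmp3 rose in stromal fibroblast-like cells, 2 of 8, and Mmp3 in cluster 0, 1 of 8. The Mmp3 value of stromal fibroblast-like cells was 1017 CPM in replicate 1 and 26.6 CPM in replicate 2, with the 2-week value of 37.1 CPM between them. DESeq2 called 1 protease in tendon-type clusters and none in progenitor-like cells, stromal fibroblast-like cells or cluster 0.

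Of 10 genes of the transforming growth factor beta system, which thrombospondin 1 can activate, all 10 were measured in tendon-type clusters, where Tgfb1 rose (29.6, 145 and 81.4 CPM, log2 change 1.79, edgeR adjusted p = 0.0328) and the latent-binding protein gene Ltbp1 fell (73.0, 22.1 and 38.0 CPM, log2 change -1.49, edgeR adjusted p = 0.0402). Ccn2, a target gene of the pathway, rose in stromal fibroblast-like cells (27.0, 114 and 693 CPM) and in cluster 0 (98.0, 460 and 436 CPM). DESeq2 called 1 gene of the list in each of these last 2 sets and none in tendon-type clusters. No gene of this list passed edgeR's test in progenitor-like cells, where Thbs1 fell, with 1 unadjusted p under 0.05 (Tgfb1) and no call by DESeq2. Of 13 chaperones of the endoplasmic reticulum, through which these multimers fold, none passed edgeR's test in any of the 7 sets of cells tested, with an unadjusted p under 0.05 for 2 in cluster 0 and 1 in stromal fibroblast-like cells and no call by DESeq2.

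Among the 17 immediate early and dissociation genes, which mark handling of the tissue, Zfp36 rose in progenitor-like cells by edgeR's test and no other passed in any set. That is 1 of 17 where 3.35% of all genes passed, with 6 unadjusted p under 0.05 and no call by DESeq2. The list summed to 7184, 11782 and 15085 CPM in progenitor-like cells and to 10454, 14042 and 11125 CPM in tendon-type clusters of the 3 libraries. Its part in the results was not tested.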

How the data were processed

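The 3 droplet libraries were analysed from the deposited UMI count matrices, whose features and barcodes were used as deposited. The submitters' processing notes name Cell Ranger 6.1.2 and mm10 for the counts of the authors. The annotation release and count settings are not given in the sources used here. The 5 members and all gene lists were chosen with earlier results of these data known.

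Kept barcodes had 500 or more genes, 1000 or more UMIs and a mitochondrial share of 10% or less (4964, 609 and 1015). Doublets (197, 3 and 8) were called with a rewritten scrublet score at 0.8% per 1000 barcodes and removed. Clustering used 2000 variable genes without the members, z-scores within library, 30 components, 15 neighbours and Leiden at resolution 0.5, seed 0 (python-igraph 0.11.9). A cluster was named when 2 markers of a class were among its 10 leading genes, 3 were detected and the class led every other by 2. This rule, the tendon-type, stromal fibroblast-like, cluster 0 and pericyte comparisons, the alternatives with clusters 1 and 2 alone and the 10 pairs of classes were set after the data had been seen. CPM are plain, from counts summed over a class with at least 20 cells in a library.

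Age was tested with edgeR 4.0.16's quasi-likelihood test (TMM, filterByExpr, R 4.3.3), adjusted over all genes tested by Benjamini-Hochberg at 0.05. The single library of 2 weeks gives no spread of its own, so the test takes that of the 20-week libraries, moderated toward a spread shared by all genes. The shared spread has a weight, the prior degrees of freedom. It was infinite in progenitor-like and mural-like cells, tendon-type clusters, cluster 0 and the pericyte cluster, where a gene's own spread hardly counted. The weight was 67.2 in stromal fibroblast-like cells and 5.41 in all cells. With library totals it was 6.18 in progenitor-like cells. SE is the size of the log2 change over the square root of F. Ratios of single libraries used TMM and a prior count of 2, so they can differ from ratios of the plain CPM, and were not tested. DESeq2 1.42.0 was the alternative tool. Scripts were tested on simulated data. Thinning drew 1000 UMIs per cell. Likeness of pattern used log2(CPM + 10) over genes of at least 20 CPM on average. Genes named are the members, the 3 most like each, and of each list up to 4 with the smallest p in a comparison, or at most 2 where none passed. Cd47 and Lrp1 were named for their role. Positions are from GENCODE's annotation of GRCm38, 1-based.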

Additional observations from a re-analysis of the deposited data

Results flagged for a closer look

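Of 50 tests of a difference in age change between classes, 3 passed edgeR's quasi-likelihood test with Benjamini-Hochberg adjustment, each for another gene. Among all genes 0.88% passed between cluster 0 and progenitor-like cells, and 1.34% between stromal fibroblast-like and progenitor-like cells. DESeq2 called 1 of the 3, Thbs4. None of the 3 passed without the library block. The calls held in 3 of 4 alternatives for Thbs4, 1 of 4 for Comp and 1 of 5 for Thbs1. The age change of Thbs4 was higher by 2.61 (log2) in cluster 0 than in progenitor-like cells (adjusted p = 1.29e-09), with single log2 ratios above 0 in 2 of 2 replicates of the first and below 0 in 2 of 2 of the other. The progenitor-like values of Thbs4 at 20 weeks rest on 12 and 46 UMIs. The age change of Comp in cluster 0 minus progenitor-like cells was -1.34 (adjusted p = 0.0214), with higher levels at 20 weeks in both classes and both replicates. That of Thbs1 was higher by 2.45 in stromal fibroblast-like than in progenitor-like cells (adjusted p = 5.43e-05), with ratios above 0 in 2 of 2 replicates of the first and below 0 in 2 of 2 of the other. For Thbs1 in mural-like minus stromal fibroblast-like cells the difference was -2.75, and every replicate of the 2 classes moved in opposite directions, with single ratios of -0.42 and -5.40 against 0.63 and 0.94. The test of that difference did not pass (adjusted p = 0.578), and the mural values at 20 weeks rest on 32 and 1 UMIs.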

How the results depend on the processing

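With 1 library at 2 weeks and classes of 38 to 128 cells in some 20-week libraries, depth limited the low genes. The tenocyte-like comparison and its interaction were not run, nor were progenitor-like and mural-like cells under stricter cell filters, for want of 20 cells in a library. No paired analysis was possible because the labels link no 2-week library to a 20-week library. The interactions used the library as a block.

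The number of members past the threshold moved as follows. In all cells it was 0, and 1 with DESeq2. In progenitor-like cells it was 2 and with the members in the clustering 3 (Thbs4, edgeR adjusted p = 0.0011), but 1 with DESeq2, with doublets kept, at resolution 1.0 and with thinned sums, and 0 with library totals. Clustering with the members does not choose cells independently of them, so the 3 is no independent check. In tendon-type clusters the number was 1, and 0 without the low-count filter. For cluster 0 against progenitor-like cells it was 2, but 1 with DESeq2 or cluster 1 alone and 0 without the replicate block. For stromal fibroblast-like against progenitor-like cells it was 1, but 3 between clusters 2 and 1 alone and 0 with DESeq2, library totals, resolution 1.0 or no replicate block. For tendon-type against progenitor-like cells it was 0, but 1 with library totals (Thbs1), at resolution 1.0 (Thbs4) and with cluster 1 alone (Thbs4). For stromal fibroblast-like cells against cluster 0 it was 0, and 1 with library totals (Thbs4). Of the 15 most alike genes, 8 were shared with log2(CPM + 1). The causes were not tested.

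Among all genes, 16 were called in all cells, 212 with DESeq2, 706 without the low-count filter and 0 under stricter cell filters (946 with an unadjusted p under 0.05), 325 in progenitor-like cells against 92 with DESeq2 and 16 with library totals, and 671 in tendon-type clusters (323 up, 348 down) against 272 with DESeq2 (160 up, 112 down) and 563 with library totals (332 up, 231 down). In stromal fibroblast-like cells 290 were called against 63 with DESeq2 and 175 with library totals, and in cluster 0 161 against 59 and 106. With library totals the median change of all genes was 0.23 in tendon-type clusters (0.03 with TMM) and 0.32 in mural-like cells (0.04 with TMM).

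Of 30 age changes within a class, 4 changed sign in an alternative, with reported sizes between 0.0023 and 0.15. Of 50 differences between classes, 9 did, with sizes up to 1.72 (Thbs4, cluster 0 minus stromal fibroblast-like cells, -0.067 with cluster 2 alone). None of these had passed. Thbs3 in all cells became -0.033 without the filter and -0.0027 under stricter cell filters. Thbs2 in progenitor-like cells became -0.0090 with library totals, -0.047 without the filter, -0.14 with doublets kept and -0.17 with the members in the clustering. In stromal fibroblast-like cells Thbs3 became -0.57 at resolution 1.0 and -0.17 in cluster 2 alone, and Thbs4 became -0.33, -0.86 and -0.21 under stricter filters, resolution 1.0 and members in the clustering.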

Other observations

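At the finer clustering resolution of 1.0, some fibroblast and tendon clusters of the 2-week library differed in Thbs4, although the members were not used to build them. Only some pairs of clusters are given here. Cluster 3 was split into a tenocyte-like cluster led by Angptl7, with 360 cells, and the fibrocartilage-like cluster of 177 cells led by Spp1 and Ibsp. Thbs4 was at 1361 CPM in the first and 483 CPM in the other, while Thbs1 was at 373 and 741 CPM and Comp at 713 and 1458 CPM. Thbs2 was close in both, at 781 and 829 CPM.

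Stromal fibroblast-like cells of 2 weeks also differed between clusters. Thbs4 was at 11.98 CPM in 164 cells led by Mmp3, Cxcl14 and Lpl and at 691 CPM in 72 cells led by Cp and Apod, while Comp was low in both, at 5.99 and 10.5 CPM. Of the Fmo2 fibroblasts, 165 cells led by Hmcn2 and Cilp had 546 CPM of Thbs4, and 90 cells led by Fmo2 and Hhip had 1.56 CPM. Their Thbs2 levels were 166 and 373 CPM, and their Comp levels 47.5 and 4.68 CPM. These values come from 1 library and have no replicate check.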
